A study of Homo sapiens with 11 samples.

Results

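The genes described here encode heat shock proteins and related molecular chaperones in RWPE1 cells, an immortalized but non-tumorigenic line of human prostate epithelium. They were chosen by name alone: protein-coding genes whose symbol starts with HSPA, HSPB, HSPD, HSPE, HSPH, HSP90, DNAJ, CCT or BAG and goes on with a digit, or with a letter and a digit, and that had 100 or more counts in total over the 11 libraries (for HSP90, 2 letters before the digit were also accepted, so that HSP90AA1 and HSP90AB1 are included). Of 60676 genes in the count table, 90 protein-coding genes had such a symbol and 73 reached the count limit. They comprise 13 HSPA, 1 HSPH, 3 HSP90, 2 HSPB and 2 HSPD or HSPE genes, 4 DNAJA, 9 DNAJB and 24 DNAJC genes, 8 CCT and 6 BAG genes, and HSPBP1, which has the letters of the family but encodes a nucleotide exchange factor of HSP70. The members with the fewest counts were DNAJC28 with 227 and CCT6B with 525, and the genes just under the limit were HSPA12B with 76 and HSPB6 with 60. All 73 members also passed the filter on low counts that left 19981 genes for testing, and the other 17 genes with such a symbol, all under the limit, were not tested as members.

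RNA was sequenced from cells kept in normoxia (0 h, 3 libraries) and from cells moved to 1% oxygen for 6 h (3 libraries), 12 h (3 libraries) or 24 h (2 libraries; a further 24 h library was not analysed here). All cells were untransfected and grew in serum-free keratinocyte medium with bovine pituitary extract, epidermal growth factor, penicillin, streptomycin and amphotericin. The medium of the hypoxic cells also held 10 mM HEPES buffer, so low oxygen and the added buffer cannot be told apart. The comparisons ask how the chaperone genes moved as the cells spent longer in hypoxia.

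Library totals ranged from 27496009 to 49488345 counts, and levels are given as CPM, counts relative to library size after scaling by the trimmed mean of M-values (TMM). The TMM factors ran from 0.539 to 1.32, and the lowest belonged to 24 h replicate 2, which stands apart from the other libraries. Scaling by library size alone shifted the centre of all genes by over 0.1 on the log2 scale, to a median of -0.32 at 6 h, -0.50 at 12 h and -0.97 at 24 h against 0 h, so every change below is relative to the TMM-scaled centre. The labels do not say that replicates were separate cultures, so p-values measure the spread between these libraries, which may be technical. The basal epithelial genes KRT5 (6077 to 15881 CPM) and KRT14 and the epithelial gene CDH1 were present in every library, and KLK3 was at 0 in every library. These markers moved with hypoxia too. Among basal markers, KRT5 (12 and 24 h), KRT14 and ITGA6 (each time) were higher and TP63 was lower at each time, at -1.72, -0.95 and -1.50 on the log2 scale. The luminal keratins KRT8, at 1.43, 1.72 and 2.59, and KRT18, at 1.63, 1.92 and 2.48, were higher at each time. Of the 2 epithelial markers, EPCAM was higher at each time, by 0.89 at 24 h, and CDH1 was lower at 24 h, at -1.06. Their part in the chaperone changes was not tested. Of 12 markers of fibroblasts, endothelium and leukocytes, all but COL1A1 (27.7 to 60.5 CPM) stayed under 1 CPM. In bulk RNA, fewer cells of a type and less RNA per cell cannot be told apart.

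Chaperones help proteins fold, keep unfolded chains from clumping and hand damaged proteins to degradation. HSP70 proteins (HSPA genes) bind short hydrophobic stretches in a cycle driven by ATP. J-proteins (DNAJ genes) bring them clients and start ATP hydrolysis, while nucleotide exchange factors (HSPH1, the BAG proteins, HSPBP1) reset the cycle. HSP90 then matures kinases and receptors, the barrel-shaped TRiC (CCT genes) folds actin and tubulin, and HSPD1 with HSPE1 form the folding chamber of mitochondria. When unfolded proteins pile up in the cytosol, heat shock factors bind repeats of the unit nGAAn, the heat shock element, in front of many inducible members. Unfolded proteins in the endoplasmic reticulum (ER) act through a separate element, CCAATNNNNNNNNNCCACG, in front of HSPA5 and HSP90B1.

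The promoters of 6 members are shown because they carry these elements and belong to genes whose levels the results turn on. Each run holds the 150 bases just before a RefSeq start of the gene, 5′ to 3′ on the gene's strand, on GRCh38.p14. This start need not be the outermost one. HSP90AA1 has another RefSeq start further upstream, and its promoter (chr14:102139700-102139999) held 0 heat shock elements. Capitals mark the match to the heat shock element in the first 4 (GAANNTTC for HSPA1A, at chr6:31815393-31815542, + strand, and TTCNNGAANNTTC for HSPA6 at chr1:161524390-161524539, + strand, HSPA8 at chr11:123062137-123062286, - strand and HSP90AA1 at chr14:102087045-102087194, - strand) and the ER stress element, read on either strand, in the other 2 (HSPA5 at chr9:125241344-125241493, - strand and HSP90B1 at chr12:103930260-103930409, + strand).
HSPA1A: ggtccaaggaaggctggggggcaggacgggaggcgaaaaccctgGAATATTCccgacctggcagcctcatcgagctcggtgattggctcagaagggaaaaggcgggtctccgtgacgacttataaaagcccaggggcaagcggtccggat
HSPA6: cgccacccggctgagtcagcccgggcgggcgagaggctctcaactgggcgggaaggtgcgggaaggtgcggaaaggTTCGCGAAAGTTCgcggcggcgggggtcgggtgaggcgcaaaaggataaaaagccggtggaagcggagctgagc
HSPA8: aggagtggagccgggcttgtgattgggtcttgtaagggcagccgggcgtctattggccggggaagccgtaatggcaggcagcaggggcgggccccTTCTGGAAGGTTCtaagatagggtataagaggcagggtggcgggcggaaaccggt
HSP90AA1: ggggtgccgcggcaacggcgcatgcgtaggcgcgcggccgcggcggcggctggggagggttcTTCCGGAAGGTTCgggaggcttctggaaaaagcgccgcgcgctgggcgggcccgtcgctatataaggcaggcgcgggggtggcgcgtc
HSPA5: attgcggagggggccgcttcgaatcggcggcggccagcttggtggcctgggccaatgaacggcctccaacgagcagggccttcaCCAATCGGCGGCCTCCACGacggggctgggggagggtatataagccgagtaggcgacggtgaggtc
HSP90B1: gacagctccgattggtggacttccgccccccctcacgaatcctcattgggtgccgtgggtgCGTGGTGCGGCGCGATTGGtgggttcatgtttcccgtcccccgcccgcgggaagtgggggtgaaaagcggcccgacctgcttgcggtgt

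The letters were searched on both strands from 250 bases before to 50 bases after 35116 RefSeq starts, 93 of which belong to 68 of the 73 members. The 3-unit form of the heat shock element (GAANNTTCNNGAA or TTCNNGAANNTTC) was found in 0.49% of all promoters and 7.53% of the members' promoters. These belong to 7 members: DNAJA1, DNAJB6, HSP90AA1, HSP90AB1, HSPA6, HSPA8 and HSPD1. Of these, HSP90AA1, HSP90AB1 and HSPD1 also have promoters without it. The 2-unit form (GAANNTTC or TTCNNGAA), which overlaps the first, was in 13.49% of all promoters and 24.73% of the members' promoters, which belong to 22 members. The searched promoters of HSPH1, BAG3, HSPA2 and HSPE1 held 0 matches to either form. The ER stress element was in 0.077% of all promoters and 2.15% of the members' promoters, those of HSPA5 and HSP90B1 alone. The core of the hypoxia response element, ACGTG, was in 21.4% of all promoters and 27.96% of the members' promoters. A match describes the letters only.

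Most genes of the HSPA, HSPH, HSP90, HSPD/HSPE and CCT families rose within 6 h of hypoxia and were still above normoxia at 24 h. Of the ER and mitochondrial members 10 to 25% were higher at each time, beside 24.2% to 29.9% of all genes. At 6 h, 41 of the 73 members were higher and 11 lower than at 0 h (edgeR's quasi-likelihood test, Benjamini-Hochberg adjusted p under 0.05 over 19981 genes; all adjusted p-values are from this test). This was 71.2% of members against 52.8% of all genes, and the difference lay in the direction, with 25.1% of all genes higher and 27.7% lower. At 12 h, 40 members were higher and 10 lower, beside 51.2% of all genes called in either direction (24.2% higher, 27.1% lower). At 24 h, 40 were higher and 12 lower, beside 61.2% of all genes (29.9% higher, 31.3% lower). With library size alone as scale the 24 h split became 25 higher and 28 lower, beside 11.1% of all genes higher and 56.6% lower, and the members' median lay 0.94 above that of all genes, against 0.89 with TMM scaling. Leaving out 24 h replicate 1 brought the number lower at 6 h to 18, and no other single library moved a count against 0 h by more than 1.5 times.

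The median log2 fold change of the members was 0.63 at 6 h, 0.70 at 12 h and 0.83 at 24 h, while the median over all genes tested lay between -0.06 and 0.00. Among the members, 34 (46.6%) were higher at all 3 times, compared with 14.8% of all tested genes, and 7 (9.59%) were lower at all 3 times (HSPA5, HSPA12A, DNAJA3, DNAJB12, DNAJC16, DNAJC21 and DNAJC28), compared with 17.9% of all tested genes. The libraries of the hypoxic and normoxic groups did not overlap for 58 members at 6 h (69.6% of all genes), 61 at 12 h (72.3% of all genes) and 57 at 24 h (73.0% of all genes). Summed over members, chaperone RNA was 9414 to 11573 CPM at 0 h, 26005 to 30085 CPM at 6 h, 21646 to 30623 CPM at 12 h and 26153 to 26923 CPM at 24 h. As a share of all counts, without TMM scaling, they took 1.24% to 1.53% at 0 h, 2.68% to 3.21% at 6 h, 2.15% to 2.78% at 12 h, and 2.22% in replicate 1 and 1.45% in replicate 2 at 24 h, the last within the normoxic range. The 7 members whose promoters hold the 3-unit heat shock element were higher at all 3 times. Of the 22 members with the 2-unit form, 18 were higher at 6 h, 19 at 12 h and 17 at 24 h. Of the 24 with ACGTG, 12 were higher and 4 lower at 6 h, 10 and 4 at 12 h, and 13 and 4 at 24 h. Beside these, 56.2%, 54.8% and 54.8% of all members and 25.1%, 24.2% and 29.9% of all genes were higher at the 3 times. Genes outside the members were not split by element, and the part of the elements in these calls was not tested.

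**Figure D1:**
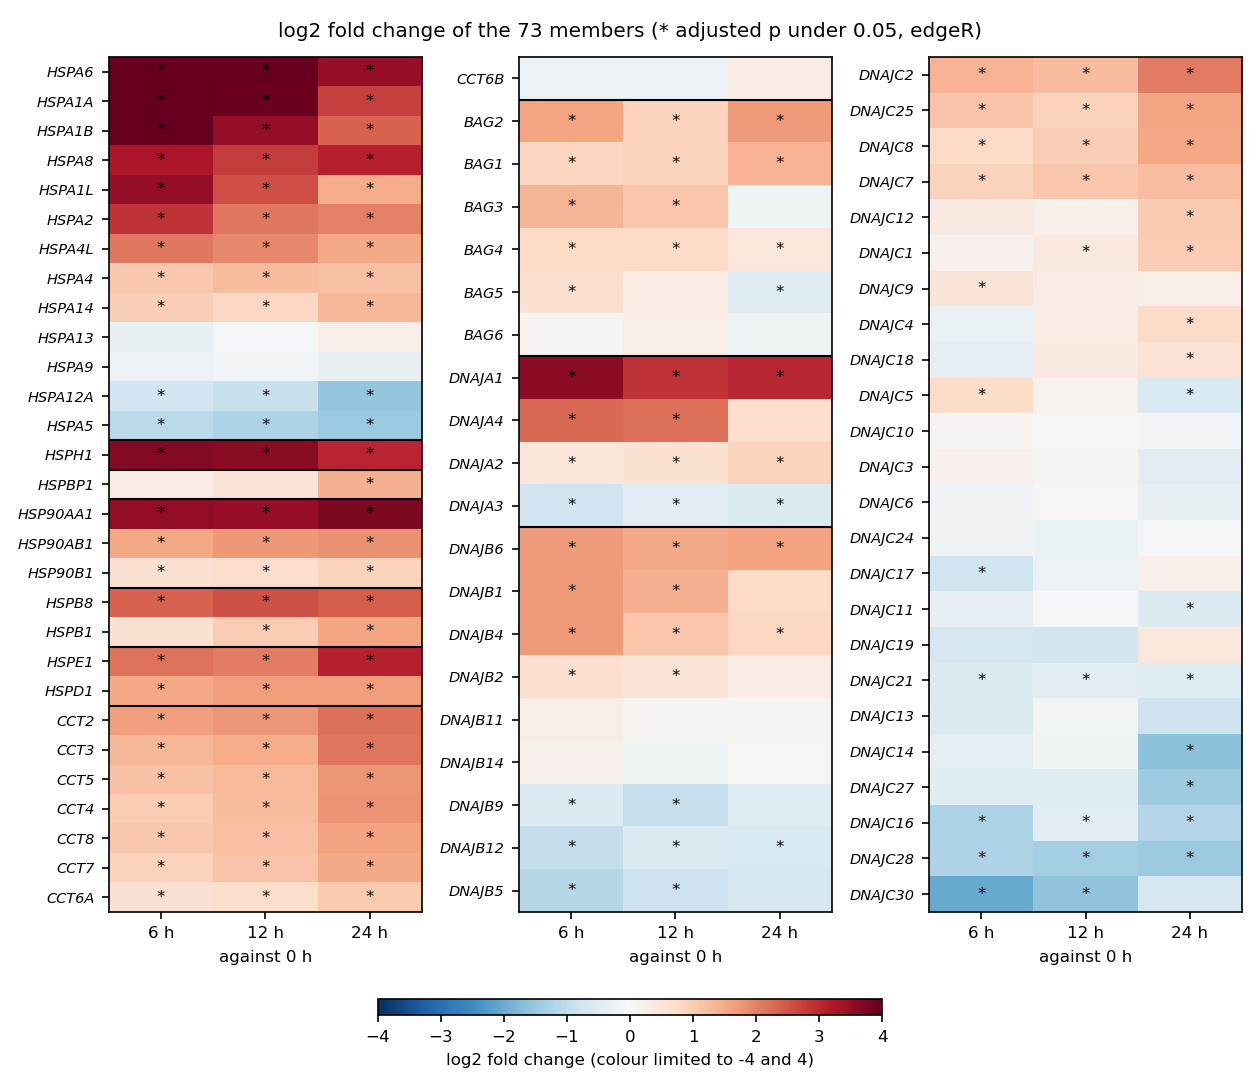
Log2 fold change of each of the 73 members at 6, 12 and 24 h against 0 h, as colour (red higher, blue lower, with the scale limited at its ends), grouped by family with black lines between families; an asterisk marks an edgeR adjusted p under 0.05. The HSPA, HSP90, HSPD/HSPE and CCT rows are mostly red at all times, HSPA5 and HSPA12A are blue, and the DNAJC rows are mixed.

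By family, 3 of 3 HSP90 genes, 7 of 8 CCT genes and both HSPD and HSPE genes were higher at each time, and of 13 HSPA genes 9 were higher and 2 lower. The BAG genes went from 5 of 6 higher at 6 h to 3 higher and 1 lower at 24 h. The DNAJA genes had 3 higher and 1 lower at 6 and 12 h, and 2 higher and 1 lower at 24 h. Among the DNAJB genes 4 were higher and 3 lower at 6 and 12 h, and 2 higher and 1 lower at 24 h. The DNAJC genes, the largest and most varied family, had 6 higher and 5 lower at 6 h, 5 higher and 4 lower at 12 h, and 8 higher and 7 lower at 24 h, shares of 20.8% to 33.3% higher and 16.7% to 29.2% lower. Over all genes, 24.2% to 29.9% were higher and 27.1% to 31.3% lower. The DNAJC shares lay near these for higher calls and under them for lower calls. The DNAJB shares were 44.4% higher and 33.3% lower at 6 and 12 h, and 22.2% and 11.1% at 24 h. With library size alone as scale the 24 h values of HSP90B1, BAG4, DNAJB4, DNAJC4 and DNAJC18, all called higher, turned negative.

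**Figure D2:**
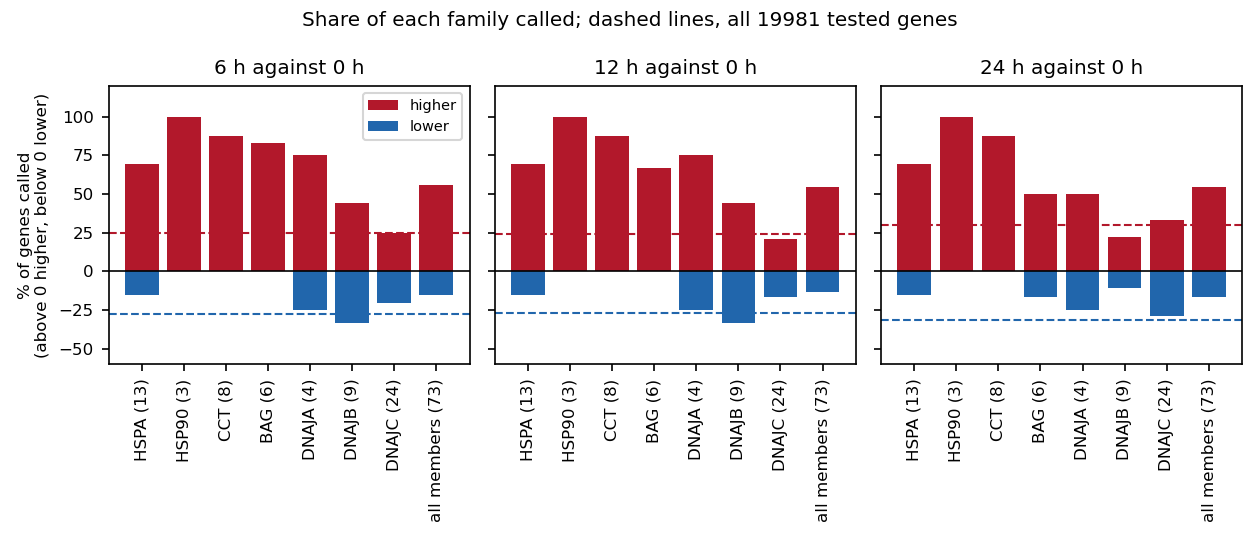
Percentage of the genes in each family called higher (red bars, above 0) or lower (blue bars, below 0) at 6, 12 and 24 h against 0 h, with the number of genes in brackets; dashed lines give the same percentages over all 19981 tested genes. The HSPA, HSP90 and CCT bars reach 69.2 to 100% higher. The DNAJC bars lie near the dashed line for higher calls and end short of it for lower calls.

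The stress-inducible HSP70 genes had the largest rises at 6 h. HSPA1A (ENSG00000204389, chr6:31815543-31817946, + strand), the classical heat shock HSP70 of the cytosol, stood at 140.5, 158 and 160.1 CPM at 0 h, 2572, 3143 and 4671 CPM at 6 h, 3602, 1265 and 2078 CPM at 12 h and 1204 and 814 CPM at 24 h. Every hypoxic library was above every normoxic one, and the mean level was highest at 6 h. The log2 fold change was 4.50 ± 0.39 (SE, edgeR adjusted p = 2.97e-06) at 6 h, 3.92 ± 0.38 (SE, edgeR adjusted p = 9.06e-06) at 12 h and 2.72 ± 0.38 (SE, edgeR adjusted p = 6.06e-05) at 24 h. HSPA1B, its near-identical neighbour, followed it with 4.14, 3.53 and 2.36 on the log2 scale. The genes share 71.6% of the 75-base windows of HSPA1A, so reads may have been split or lost between them. HSPA1B also overlaps an unnamed gene on the same strand over 36.55% of its exonic bases. The sum of HSPA1A and HSPA1B is free of a split between them but does not recover lost reads. That sum was 223, 245 and 250.3 CPM at 0 h, 3625, 4603 and 6736 CPM at 6 h, 5169.6, 1814 and 2949 CPM at 12 h and 1740.2 and 1165 CPM at 24 h. The mean sum was 20.8 times the normoxic mean at 6 h, 13.8 times at 12 h and 6.07 times at 24 h, and the lowest 24 h library was still 4.65 times the highest normoxic one. HSPA1A made up 63.1% to 64.7% of the sum in normoxia and 68.3% to 70.9% in hypoxia.

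HSPA6, an HSP70 that is nearly silent in unstressed cells, rose from a low base and varied widely between replicates. It stood at 0.531, 1.47 and 0.866 CPM at 0 h, 11.8, 11.8 and 92.1 CPM at 6 h, 82.7, 8.53 and 26.8 CPM at 12 h and 16.3 and 4.52 CPM at 24 h. One library at 6 h and one at 12 h were several times above the others of their group, and no hypoxic library overlapped the normoxic ones. The log2 fold change was 5.35 ± 1.06 (SE, edgeR adjusted p = 0.00112) at 6 h and 5.37 ± 1.06 (SE, edgeR adjusted p = 0.00127) at 12 h. It fell to 3.64 (edgeR adjusted p = 0.00412) without 6 h replicate 3 and to 4.23 (edgeR adjusted p = 0.00528) without 12 h replicate 1. At 24 h it was 3.47 ± 1.08 (SE, edgeR adjusted p = 0.0140), and 2.21 (edgeR adjusted p = 0.216) without 24 h replicate 1. HSPA6 shares 35.3% of its 75-base windows with HSPA7, so its counts are uncertain. HSPA1L, the testis-enriched neighbour of HSPA1A on chromosome 6, rose by 3.51 on the log2 scale at 6 h, 2.58 at 12 h and 1.47 at 24 h, and without 24 h replicate 1 the last was 1.11 (edgeR adjusted p = 0.0635).

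**Figure D3:**
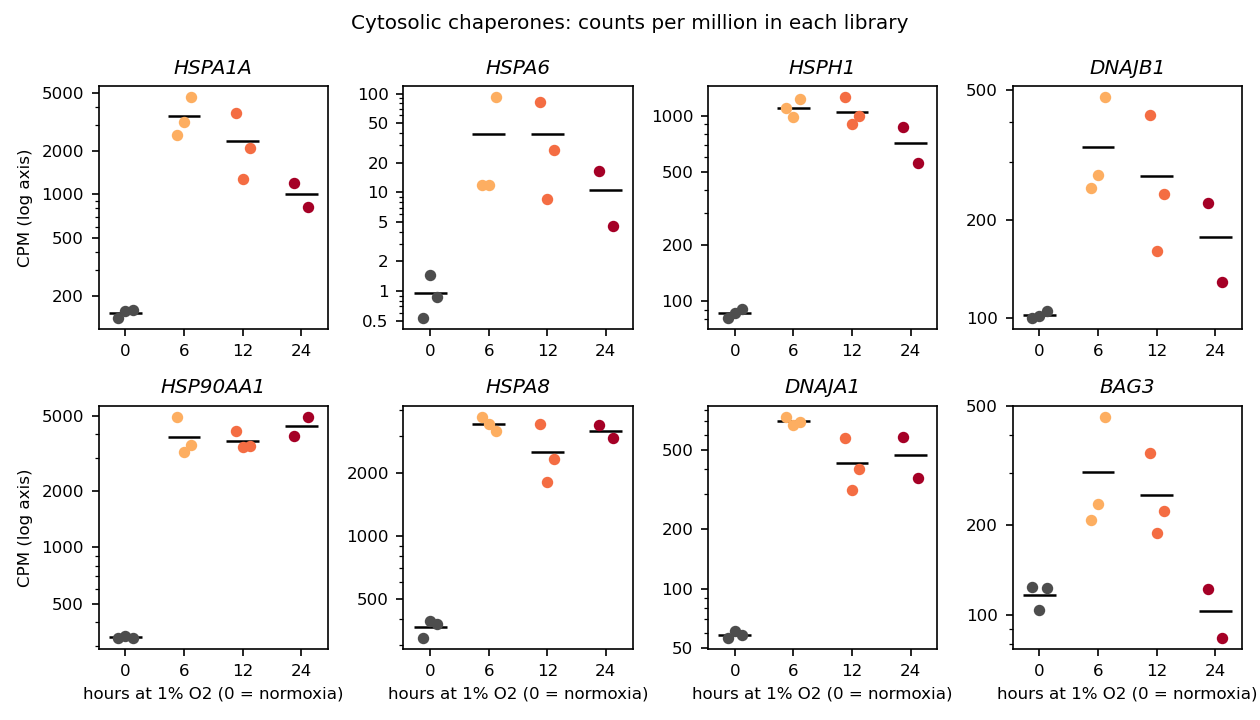
CPM on a log axis for 8 cytosolic chaperone genes in each library (points) at 0, 6, 12 and 24 h, with the group mean as a line (n = 3, 3, 3 and 2). HSPA1A, HSPH1, HSP90AA1, HSPA8 and DNAJA1 lie above normoxia in every hypoxic library, while BAG3 at 24 h lies within or under its normoxic range.

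HSPA8, the constitutive HSP70 (HSC70) that serves folding and clathrin uncoating in every cell, also rose. It stood at 325, 393 and 379 CPM at 0 h, 3720.0, 3437 and 3174 CPM at 6 h, 3421, 1806 and 2329 CPM at 12 h and 3404 and 2944 CPM at 24 h. The hypoxic libraries lay far above the normoxic ones without overlap, and the log2 fold change was 3.24 ± 0.25 (SE, edgeR adjusted p = 1.38e-06) at 6 h, 2.78 ± 0.24 (SE, edgeR adjusted p = 5.01e-06) at 12 h and 3.12 ± 0.26 (SE, edgeR adjusted p = 2.00e-06) at 24 h. HSPA2, a relative best known from the testis, rose by 2.88, 2.12 and 2.03 on the log2 scale at 6, 12 and 24 h. HSPA14, the HSP70 of the ribosome-associated complex, rose by 0.99, 0.81 and 1.31. HSPA12A, a distant HSP70 relative, fell instead, with log2 fold changes of -0.75, -0.88 and -1.53 ± 0.19 (SE, edgeR adjusted p = 2.67e-05) at 24 h.

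The HSP110 proteins are HSP70 relatives that act as nucleotide exchange factors and, with J-proteins, dissolve aggregates. HSPH1 (ENSG00000120694, chr13:31134973-31162388, - strand), the inducible HSP110, stood at 80.9, 86.8 and 90.6 CPM at 0 h, 1098, 982 and 1228 CPM at 6 h, 1264, 904 and 1001 CPM at 12 h and 876 and 557 CPM at 24 h. The groups did not overlap, and the replicates of HSPH1 were closer together than those of HSPA1A at 6 h, with 1103 ± 123 CPM (SD, n = 3) against 3462 ± 1086 CPM. Its log2 fold change was 3.68 ± 0.22 (SE, edgeR adjusted p = 3.87e-07) at 6 h, 3.62 ± 0.22 (SE, edgeR adjusted p = 6.32e-07) at 12 h and 3.06 ± 0.22 (SE, edgeR adjusted p = 1.12e-06) at 24 h. HSPA4L, also of this group, rose by 2.12, 1.93 and 1.53 on the log2 scale, and the constitutive HSPA4 by 1.08, 1.25 and 1.19. For HSPA1A, HSPH1 and DNAJB1 alone, an exact two-sided permutation test on log2 CPM gave p = 0.1 against 0 h at each of the 3 times, the smallest p these group sizes allow.

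The cytosolic HSP90 genes rose together, the inducible form more than the constitutive one. HSP90AA1 stood at 331, 337 and 329 CPM at 0 h, 4918, 3209 and 3506 CPM at 6 h, 4152, 3441 and 3479 CPM at 12 h and 3904 and 4953 CPM at 24 h. It showed no fall by 24 h, with log2 fold changes of 3.54 ± 0.23 (SE, edgeR adjusted p = 5.17e-07) at 6 h, 3.47 ± 0.23 (SE, edgeR adjusted p = 9.93e-07) at 12 h and 3.74 ± 0.24 (SE, edgeR adjusted p = 5.07e-07) at 24 h. HSP90AB1, the abundant constitutive form, stood at 754, 774 and 773 CPM at 0 h, 2202, 2207 and 2268 CPM at 6 h, 2773, 2355 and 2528 CPM at 12 h and 2895 and 2510.2 CPM at 24 h. Its rise was tight within groups and measured 1.54 ± 0.16 (SE, edgeR adjusted p = 1.21e-05) at 6 h, 1.73 ± 0.16 (SE, edgeR adjusted p = 8.33e-06) at 12 h and 1.82 ± 0.18 (SE, edgeR adjusted p = 5.15e-06) at 24 h.

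The cochaperones that serve HSP90 and HSP70 but lie outside the families were listed apart, 22 genes in all. Of them 11 were higher and 3 lower at 6 h, 13 and 1 at 12 h, and 14 and 1 at 24 h, with medians of 0.69, 0.85 and 1.28 on the log2 scale. The shares higher were 50%, 59.1% and 63.6%, beside 25.1%, 24.2% and 29.9% of all genes. The shares lower were 13.6%, 4.55% and 4.55%, beside 27.7%, 27.1% and 31.3% of all genes. AHSA1, the activator of the HSP90 ATPase, stood at 41.0, 36.9 and 39.9 CPM at 0 h, 307, 255 and 286 CPM at 6 h, 322, 275 and 281 CPM at 12 h and 275 and 356 CPM at 24 h and had log2 fold changes of 2.85, 2.90 and 3.01 ± 0.16 (SE, edgeR adjusted p = 2.76e-07) at 24 h. STIP1, which bridges HSP70 and HSP90, rose by 1.97, 2.19 and 2.41. FKBP4, a steroid receptor immunophilin, rose by 2.68, 2.79 and 2.94, and CACYBP by 2.39, 2.41 and 3.19. FNIP1, a folliculin partner that slows the HSP90 ATPase, was lower at 6 h, at -1.14 ± 0.26 (SE, edgeR adjusted p = 0.00295), and at 24 h, at -0.89 ± 0.30 (SE, edgeR adjusted p = 0.0199), the latter becoming -0.39 (edgeR adjusted p = 0.0736) without 24 h replicate 2. STIP1, FKBP4 and CACYBP were singled out after their values were seen.

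Among the J-proteins, the cytosolic DNAJA1 and DNAJA4 rose most at 6 h. DNAJA1, a general cytosolic partner of HSC70, stood at 56.3, 61.0 and 58.2 CPM at 0 h, 737, 672 and 698 CPM at 6 h, 579, 315 and 401 CPM at 12 h and 585 and 361 CPM at 24 h. Its libraries did not overlap those of 0 h, and the log2 fold change was 3.59 ± 0.25 (SE, edgeR adjusted p = 6.96e-07) at 6 h, 2.88 ± 0.24 (SE, edgeR adjusted p = 3.89e-06) at 12 h and 3.02 ± 0.25 (SE, edgeR adjusted p = 2.16e-06) at 24 h. DNAJB1, the classical heat shock HSP40, stood at 99.6, 101 and 105 CPM at 0 h, 250.0, 274 and 476 CPM at 6 h, 420.1, 160.0 and 239.7 CPM at 12 h and 226 and 129 CPM at 24 h. It was higher at 6 h, by 1.71 ± 0.34 (SE, edgeR adjusted p = 0.00116), and at 12 h, by 1.42 ± 0.34 (SE, edgeR adjusted p = 0.00404), but not called at 24 h, at 0.80 ± 0.37 (SE, edgeR adjusted p = 0.0759), with a 95% interval (t distribution) of 0.00 to 1.59. DNAJA4 had the same pattern, at 2.30 and 2.20 at 6 and 12 h and 0.72 ± 0.42 (SE, edgeR adjusted p = 0.152) at 24 h. DNAJB6, which keeps polyglutamine proteins from aggregating, was higher at all times, with log2 fold changes of 1.69, 1.52 and 1.61. DNAJB4 rose by 1.69 and 1.11 at 6 and 12 h and by 0.83 at 24 h, or 0.49 (edgeR adjusted p = 0.172) without 24 h replicate 1. DNAJA2 rose by 0.48 to 0.89 across the times. DNAJB5 was lower at 6 h, at -1.15 ± 0.27 (SE, edgeR adjusted p = 0.00373), and at 12 h, at -0.82, where the call was lost without 0 h replicate 2, at -0.66 (edgeR adjusted p = 0.0983), and without 12 h replicate 1, at -0.56 (edgeR adjusted p = 0.0770).

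The DNAJC proteins use the J-domain for separate tasks, and they did not move as a block. DNAJC2, which anchors HSP70 at the ribosome with HSPA14, stood at 19.4, 17.1 and 18.2 CPM at 0 h, 66.1, 42.9 and 34.1 CPM at 6 h, 41.4, 44.8 and 45.1 CPM at 12 h and 68.1 and 85.0 CPM at 24 h and had log2 fold changes of 1.39, 1.26 and 2.07 ± 0.23 (SE, edgeR adjusted p = 1.10e-05) at 24 h. DNAJC7, a cochaperone of both HSP70 and HSP90, rose by 0.93 and 1.11, and by 1.23 at 24 h, or 0.62 (edgeR adjusted p = 0.00278) without 24 h replicate 1. DNAJC8, a spliceosome-associated protein, rose by 0.78, 0.97 and 1.56, and DNAJC25 by 1.15, 0.91 and 1.59. DNAJC16 stood at 20.7, 25.8 and 22.2 CPM at 0 h, 10.5, 9.41 and 8.83 CPM at 6 h, 15.4, 18.7 and 17.6 CPM at 12 h and 10.4 and 9.76 CPM at 24 h. It was lower at 6 h, at -1.26 ± 0.15 (SE, edgeR adjusted p = 2.46e-05), less so at 12 h, at -0.41 ± 0.14 (SE, edgeR adjusted p = 0.0297), and lower again at 24 h, at -1.18 ± 0.17 (SE, edgeR adjusted p = 8.07e-05). The 12 h call was lost without 0 h replicate 2 or 3 or 12 h replicate 1 or 3, the value being -0.33 (edgeR adjusted p = 0.125) without the first. DNAJC14 was called at 24 h alone, at -1.64 ± 0.24 (SE, edgeR adjusted p = 8.40e-05), and DNAJC5, the cysteine string protein of secretory vesicles, was higher at 6 h, at 0.73, and lower at 24 h, at -0.61. DNAJC28, with the fewest counts of any member, was lower at each time, at -1.23, -1.39 and -1.47. DNAJC9 and DNAJC14 share 53.4% and 49.6% of their 75-base windows with other genes, much of it with genes on the opposite strand, and the strand setting of the counting is not given in the sources used here.

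The 2 small heat shock proteins bind unfolding chains without ATP. HSPB1 (HSP27) had the highest level per length of all members at 0 h, 603 RPKM (CPM divided by exonic length in kilobases). In CPM it stood at 1022, 830.0 and 1083 CPM at 0 h, 1231, 1791 and 1441 CPM at 6 h, 1808, 1964 and 2144 CPM at 12 h and 1617 and 4287 CPM at 24 h. It was not called at 6 h, at 0.60 ± 0.29 (SE, edgeR adjusted p = 0.101), and higher at 12 h, at 1.01 ± 0.30 (SE, edgeR adjusted p = 0.0128), and at 24 h, at 1.59 ± 0.32 (SE, edgeR adjusted p = 0.00103). Without 0 h replicate 2 the 12 h value was 0.90 (edgeR adjusted p = 0.0589), and without 24 h replicate 2, the library with by far the highest level, the 24 h value was 0.70 (edgeR adjusted p = 0.0124). HSPB8, which works with BAG3 in selective autophagy, was scarce, at 1.57, 1.63 and 1.73 CPM at 0 h, 7.48, 8.14 and 9.87 CPM at 6 h, 12.1, 8.71 and 7.93 CPM at 12 h and 12.2 and 5.34 CPM at 24 h. All its hypoxic libraries were above the normoxic ones, with log2 fold changes of 2.37, 2.54 and 2.42, the last 1.64 (edgeR adjusted p = 1.73e-04) without 24 h replicate 1.

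The 7 ring subunits of TRiC in the CCT family rose together at each time. Their log2 fold changes ran from 0.60 to 1.68 at 6 h, from 0.71 to 1.78 at 12 h and from 1.03 to 2.20 at 24 h. Their summed level was 1023 to 1067 CPM at 0 h, 2065 to 2337 CPM at 6 h, 2334 to 2683 CPM at 12 h and 3248 to 3581 CPM at 24 h. The 6 h and 12 h sums overlapped by a narrow margin, and the 24 h sums lay above all others. This order did not hold without TMM scaling. As a share of all counts the subunits took 0.220% to 0.245% at 6 h, 0.223% to 0.244% at 12 h, and 0.276% in replicate 1 and 0.193% in replicate 2 at 24 h, beside 0.135% to 0.137% at 0 h. CCT5 shares 28.51% of its 75-base windows with other genes, nearly all with an unnamed long noncoding gene on the opposite strand. CCT2 changed most, standing at 83.6, 82.8 and 83.1 CPM at 0 h, 287, 255 and 256 CPM at 6 h, 329, 258 and 269 CPM at 12 h and 377 and 389 CPM at 24 h, with a log2 fold change of 2.20 ± 0.15 (SE, edgeR adjusted p = 8.29e-07) at 24 h. CCT6A changed least, at 203, 197 and 210.4 CPM at 0 h, 317, 309.9 and 298 CPM at 6 h, 374, 304 and 323 CPM at 12 h and 419 and 414 CPM at 24 h, with 1.03 ± 0.14 (SE, edgeR adjusted p = 6.22e-05) at 24 h; with library size alone as scale its calls at the 3 times were lost. CCT6B, the testis form of the zeta subunit, stood between 0.843 and 2.14 CPM in all libraries and was not called at any time, with a 95% interval of -0.39 to 1.01 at 24 h.

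**Figure D4:**
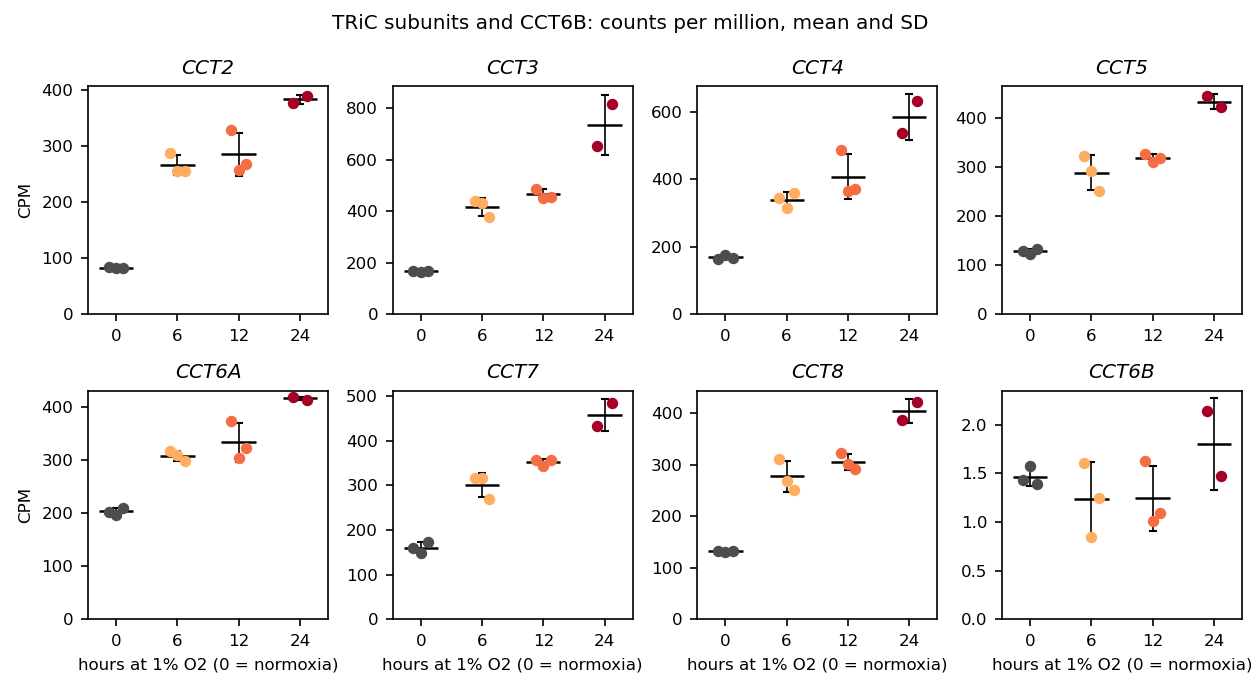
CPM of the 7 TRiC ring subunits of the CCT family and of CCT6B in each library (points) at 0, 6, 12 and 24 h, with the group mean (line) and SD (bar; n = 3, 3, 3 and 2). The ring subunits step up at 6 h and are highest at 24 h, while CCT6B stays near 1 to 2 CPM.

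TCP1, the alpha subunit of the same ring, has a symbol outside the family names and was listed with prefoldin and the tubulin cofactors. It stood at 165, 173 and 168 CPM at 0 h, 419, 449 and 428 CPM at 6 h, 594, 468 and 494 CPM at 12 h and 726 and 864 CPM at 24 h, with log2 fold changes of 1.36, 1.62 and 2.24 ± 0.16 (SE, edgeR adjusted p = 1.06e-06) at 24 h. Of the 14 genes in that list 5 were higher at 6 h, 5 were higher and 1 lower at 12 h, and 9 were higher and 1 lower at 24 h. The shares higher were 35.7%, 35.7% and 64.3%, beside 25.1%, 24.2% and 29.9% of all genes. PFDN5, a prefoldin subunit named after its values were seen, stood at 106, 106 and 102 CPM at 0 h and 403 and 955 CPM at 24 h, so that its log2 fold change of 2.70 joins 1 very high library with 1 moderately high one. The tubulin cofactor TBCE was lower at 24 h, at -1.46 ± 0.40 (SE, edgeR adjusted p = 0.00665).

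The nucleotide exchange factors of the BAG family differed in their course, with BAG3 and BAG5 higher at 6 h but not at 24 h, and BAG1, BAG2 and BAG4 higher at all 3 times. BAG3, the stress-inducible member that directs HSP70 clients to autophagy, stood at 124, 104 and 123 CPM at 0 h, 208, 235 and 461 CPM at 6 h, 348, 189 and 222 CPM at 12 h and 122 and 84.0 CPM at 24 h. It was higher at 6 h, by 1.36 ± 0.30 (SE, edgeR adjusted p = 0.00231), and at 12 h, by 1.11 ± 0.30 (SE, edgeR adjusted p = 0.00825), and at 24 h both libraries lay within or under the normoxic range, at -0.18 ± 0.33 (SE, edgeR adjusted p = 0.648). BAG5 was higher at 6 h, by 0.63, and lower at 24 h, at -0.52 ± 0.17 (SE, edgeR adjusted p = 0.0164). BAG1, which links HSP70 to the proteasome, rose by 0.87, 0.92 and 1.38 on the log2 scale. BAG2, an inhibitor of the ubiquitin ligase CHIP, rose by 1.58 and 0.91, and by 1.69 at 24 h, or 1.07 (edgeR adjusted p = 0.00113) without 24 h replicate 2. BAG2 shares 42.4% of its 75-base windows with other genes, mostly RAB23 on the opposite strand. BAG4 was called at 24 h, at 0.46, but not without 0 h replicate 2, at 0.41 (edgeR adjusted p = 0.0600), or 24 h replicate 1, at 0.34 (edgeR adjusted p = 0.0721), nor without the filter on low counts, at 0.35 (adjusted p = 0.252). BAG6, which guards membrane proteins on their way to the ER, stayed between 172 and 259.6 CPM and was not called against 0 h. HSPBP1 was called at 24 h alone, at 1.41 ± 0.32 (SE, edgeR adjusted p = 0.00238), which rests on 24 h replicate 2 (77.4 CPM, against 25.4 CPM in replicate 1) and was 0.37 (edgeR adjusted p = 0.103) without it.

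The mitochondrial members divided between the chaperonin pair, which rose, and the rest. HSPD1 (HSP60) stood at 489, 492 and 482 CPM at 0 h, 1549, 1286 and 1415 CPM at 6 h, 1796, 1380.4 and 1453 CPM at 12 h and 1626 and 1468 CPM at 24 h. Its groups did not overlap, and the log2 fold change was 1.54 ± 0.17 (SE, edgeR adjusted p = 1.45e-05) at 6 h, 1.66 ± 0.17 (SE, edgeR adjusted p = 1.26e-05) at 12 h and 1.67 ± 0.18 (SE, edgeR adjusted p = 1.05e-05) at 24 h. HSPE1 (HSP10), the lid of that chamber, whose gene lies head to head with HSPD1, stood at 16.2, 14.4 and 15.3 CPM at 0 h, 67.5, 59.5 and 78.9 CPM at 6 h, 77.0, 52.8 and 59.3 CPM at 12 h and 53.4 and 207 CPM at 24 h. Its log2 fold changes were 2.17 ± 0.36 (SE, edgeR adjusted p = 3.27e-04) at 6 h, 2.04 ± 0.36 (SE, edgeR adjusted p = 5.87e-04) at 12 h and 3.09 ± 0.39 (SE, edgeR adjusted p = 3.26e-05) at 24 h, the last 1.78 (edgeR adjusted p = 7.87e-06) without 24 h replicate 2. HSPA9, the HSP70 of the matrix (mortalin), stood at 613, 592 and 623 CPM at 0 h, 548, 512 and 505 CPM at 6 h, 605, 524 and 574 CPM at 12 h and 599 and 396 CPM at 24 h and was not called, with 95% intervals of -0.58 to 0.13 at 6 h and -0.70 to 0.11 at 24 h. DNAJA3, its J-protein partner, fell by 0.80 on the log2 scale at 6 h, by 0.46 at 12 h and by 0.53 at 24 h. DNAJC30 stood at 2.98, 3.76 and 3.10 CPM at 0 h, 0.820, 0.714 and 0.891 CPM at 6 h, 1.01, 1.30 and 0.914 CPM at 12 h and 1.33 and 2.83 CPM at 24 h and was lower at 6 h, at -2.01 ± 0.28 (SE, edgeR adjusted p = 1.00e-04), and at 12 h, at -1.61 ± 0.28 (SE, edgeR adjusted p = 5.16e-04), but not called at 24 h, at -0.67 ± 0.31 (SE, edgeR adjusted p = 0.0778). Over the 8 mitochondrial members tested, 2 (25%) were higher and 3 (37.5%) lower at each time, beside 24.2% to 29.9% of all genes higher and 27.1% to 31.3% lower.

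Outside the families, 12 mitochondrial chaperones and proteases were tested, with 1 higher and 4 lower at 6 h, 3 and 5 at 12 h, and 4 and 5 at 24 h. These were 8.33%, 25% and 33.3% higher and 33.3%, 41.7% and 41.7% lower, beside 25.1%, 24.2% and 29.9% of all genes higher and 27.7%, 27.1% and 31.3% lower. GRPEL1, the nucleotide exchange factor of HSPA9, stood at 17.1, 15.5 and 17.3 CPM at 0 h, 62.9, 63.1 and 57.3 CPM at 6 h, 56.8, 50.2 and 53.1 CPM at 12 h and 52.6 and 57.1 CPM at 24 h, without overlap, and rose by 1.88, 1.68 and 1.72 on the log2 scale. LONP1, the matrix protease and chaperone, stood at 122, 121 and 124 CPM at 0 h, 55.1, 62.9 and 65.5 CPM at 6 h, 65.6, 69.7 and 73.3 CPM at 12 h and 62.5 and 66.9 CPM at 24 h and was lower at all 3 times, at -0.82 at 12 h and -0.92 at 24 h.

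**Figure D5:**
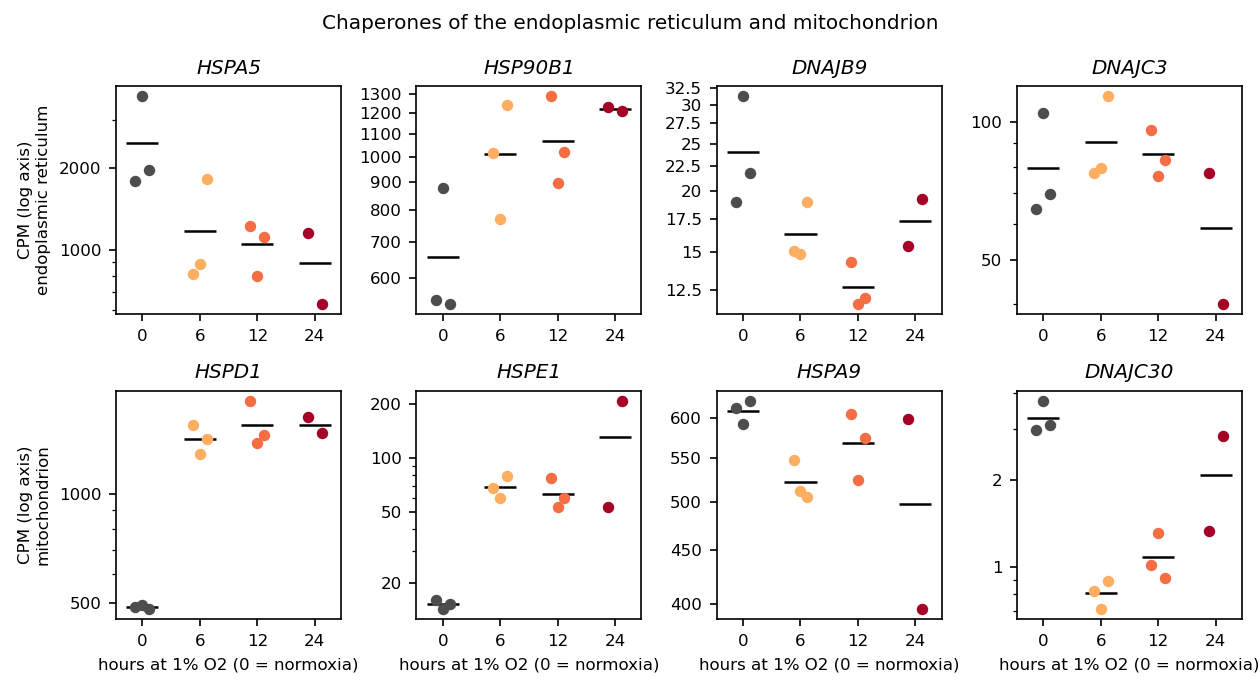
CPM on a log axis for 4 chaperone genes of the endoplasmic reticulum (top) and 4 of the mitochondrion (bottom) in each library (points), with the group mean as a line (n = 3, 3, 3 and 2 at 0, 6, 12 and 24 h). HSPA5 in 0 h replicate 2 is the highest of all libraries, HSPD1 is above normoxia in every hypoxic library, and 1 of the 2 HSPE1 points at 24 h lies far above the other.

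The ER members moved in both directions. HSPA5 (BiP, ENSG00000044574, chr9:125234853-125241382, - strand), the HSP70 of the ER and the sensor of its load, had the second highest level per length at 0 h, 379 RPKM. In CPM it stood at 1786, 3662 and 1968 CPM at 0 h, 810.3, 887 and 1819.6 CPM at 6 h, 1226, 801 and 1115 CPM at 12 h and 1147 and 632 CPM at 24 h. It was lower in hypoxia, but 0 h replicate 2 lay far above the other normoxic libraries and 6 h replicate 3 reached the normoxic range. The log2 fold change was -1.08 ± 0.37 (SE, edgeR adjusted p = 0.0256) at 6 h, -1.24 ± 0.37 (SE, edgeR adjusted p = 0.0138) at 12 h and -1.48 ± 0.43 (SE, edgeR adjusted p = 0.00957) at 24 h. Without 0 h replicate 2 it was -0.69 (edgeR adjusted p = 0.146) at 6 h and -0.85 (edgeR adjusted p = 0.0799) at 12 h. The 6 h call was also lost without 6 h replicate 1, at -0.87 (edgeR adjusted p = 0.106), or 6 h replicate 2, at -0.91 (edgeR adjusted p = 0.105), the 12 h call without 12 h replicate 2, at -1.11 (edgeR adjusted p = 0.0551), and the 24 h call without 24 h replicate 2, at -1.13 (edgeR adjusted p = 0.0649).

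HSP90B1 (GRP94), the HSP90 of the ER, moved the other way, at 549, 878 and 539 CPM at 0 h, 1017, 770.1 and 1244 CPM at 6 h, 1289, 896 and 1019 CPM at 12 h and 1235 and 1210.3 CPM at 24 h. Its log2 fold change was 0.62 ± 0.24 (SE, edgeR adjusted p = 0.0422) at 6 h, 0.70 ± 0.24 (SE, edgeR adjusted p = 0.0259) at 12 h and 0.90 ± 0.26 (SE, edgeR adjusted p = 0.00985) at 24 h. The call was lost without 0 h replicate 1, at 0.51 (edgeR adjusted p = 0.160) for 6 h and 0.59 (edgeR adjusted p = 0.111) for 12 h, and without each of 5 other single libraries at 6 h and 3 others at 12 h. HSPA5 and HSP90B1 carry the same ER stress element in their promoters and were called in opposite directions. DNAJB9, a J-protein of the ER that restrains the sensor IRE1, was lower at 6 h, at -0.56 ± 0.20 (SE, edgeR adjusted p = 0.0292), or -0.33 (edgeR adjusted p = 0.169) without 0 h replicate 2, and at 12 h, at -0.92 ± 0.20 (SE, edgeR adjusted p = 0.00210). Its 6 h call was also lost without 6 h replicate 1, at -0.50 (edgeR adjusted p = 0.0905), and without 6 h replicate 2, at -0.49 (edgeR adjusted p = 0.0995). In normoxia, replicate 2 was the highest library for HSPA5, HSP90B1, DNAJB9, DNAJB11, DNAJC3 and DNAJC10, and its part in these results was not tested beyond leaving it out. DNAJC3, DNAJC10, DNAJB11, DNAJB14 and HSPA13 were not called at any time, DNAJB12 was lower at all times, at -0.94, -0.58 and -0.62, and DNAJC1 was higher at 24 h, by 1.01 ± 0.15 (SE, edgeR adjusted p = 1.08e-04). In all, 1 of 10 ER members was higher and 3 lower at 6 h, 2 and 3 at 12 h, and 2 and 2 at 24 h. The shares lower, 20 to 30%, lay near the 27.1% to 31.3% of all genes, and the shares higher, 10 to 20%, beside 24.2% to 29.9%.

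Of 17 further ER folding and stress genes, 3 were higher and 4 lower at 6 h, 3 and 6 at 12 h, and 2 and 5 at 24 h, or 11.8% to 17.6% higher and 23.5% to 35.3% lower. Of all genes, 24.2% to 29.9% were higher and 27.1% to 31.3% lower. ERN1, which encodes the sensor IRE1 alpha, stood at 20.8, 24.0 and 23.3 CPM at 0 h, 3.42, 3.21 and 4.59 CPM at 6 h, 4.94, 5.96 and 5.39 CPM at 12 h and 3.38 and 3.32 CPM at 24 h. Its hypoxic libraries were far under the normoxic ones, with log2 fold changes of -2.59, -2.06 and -2.76 ± 0.21 (SE, edgeR adjusted p = 1.35e-06) at 24 h. EIF2AK3, the sensor PERK, was higher at 6 h, by 1.22 ± 0.20 (SE, edgeR adjusted p = 3.47e-04), and at 12 h, by 0.74. Of the genes named after their values were seen, XBP1, the transcription factor activated by IRE1, was lower at -1.24, -1.59 and -1.07, HERPUD1 at -2.46, -2.12 and -1.63, and SEL1L, also of ER-associated degradation, at -0.84, -1.20 and -1.64. HYOU1, the HSP110 of the ER, was called at 24 h alone, at -1.35 ± 0.26 (SE, edgeR adjusted p = 6.33e-04).

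The factors that control the heat shock genes moved in both directions. HSF1, the main stress-activated factor, stood at 101, 102 and 105 CPM at 0 h, 99.3, 130.2 and 116 CPM at 6 h, 144, 141 and 143 CPM at 12 h and 163 and 213 CPM at 24 h. It was not called at 6 h, at 0.17 ± 0.14 (SE, edgeR adjusted p = 0.337), and was higher at 12 h, by 0.47 ± 0.14 (SE, edgeR adjusted p = 0.0139), or 0.46 (edgeR adjusted p = 0.0534) without 0 h replicate 1, and at 24 h, by 0.88 ± 0.16 (SE, edgeR adjusted p = 3.91e-04). With library size alone as scale its 24 h value turned to -0.08 (adjusted p = 0.682). HSF2 was called higher at all 3 times, by 1.45 at 24 h, but its 6 h and 12 h calls depended on single libraries. Without 0 h replicate 2 HSF2 was 0.56 (edgeR adjusted p = 0.106) at 6 h and 0.70 (edgeR adjusted p = 0.0527) at 12 h. HSBP1, a small protein that binds the trimer of HSF1, was higher by 1.16, 1.28 and 2.38 at 6, 12 and 24 h. HSF4 was lower at each time, at -1.91, -1.75 and -2.09. Over the 5 tested genes of that list, 2 were higher and 2 lower at 6 h, 3 and 1 at 12 h, and 4 and 1 at 24 h. The shares higher were 40%, 60% and 80%, beside 25.1%, 24.2% and 29.9% of all genes. These counts include HSF2BP, which was lower at 6 h, not called at 12 h and higher at 24 h. HSF1 and HSF2 were singled out after their values were seen.

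Genes known to respond to heat shock but outside the chaperone families were mostly higher too. Of 14, 13 were higher and 1 lower at 6 h, 12 and 1 at 12 h, and 12 were higher at 24 h, with medians of 1.12, 1.23 and 1.30 on the log2 scale. The shares higher were 92.9%, 85.7% and 85.7%, beside 25.1%, 24.2% and 29.9% of all genes. SLC5A3, a myo-inositol transporter that also answers osmotic stress, stood at 21.9, 23.2 and 20.9 CPM at 0 h, 836, 704 and 348 CPM at 6 h, 345, 758 and 609.6 CPM at 12 h and 228 and 245 CPM at 24 h. Its groups did not overlap, with log2 fold changes of 4.84 ± 0.36 (SE, edgeR adjusted p = 1.19e-06) at 6 h, 4.70 at 12 h and 3.43 at 24 h. SERPINH1, the collagen chaperone HSP47, CHORDC1, an HSP90 partner, and JMJD6, named after their values were seen, rose by 3.14, 3.34 and 2.59 at 6 h. ATF3 was the gene of the list that fell, at -2.10 ± 0.31 (SE, edgeR adjusted p = 1.20e-04) at 6 h and -2.03 at 12 h, and at 24 h it was not called, at -0.40 ± 0.33 (SE, edgeR adjusted p = 0.310).

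Between 6 and 12 h few members were called. At 12 h against 6 h, 2 members were higher and 0 lower by edgeR's quasi-likelihood test, or 2.74% of members beside 4.95% of all genes (1.88% higher, 3.07% lower), while DESeq2 called 4 higher and 3 lower, beside 9.6% of all genes in either direction, and limma-voom called 2 higher and 0 lower. At an unadjusted p under 0.05, 13 of the 73 members and 4231 of the 19981 genes differed in either direction. The calls were DNAJC16, at 0.85 ± 0.15 (SE, edgeR adjusted p = 0.0102), and DNAJC18, at 0.71 ± 0.17 (SE, edgeR adjusted p = 0.0326). Both were lost when any of several single libraries was left out, DNAJC16 being 0.83 (edgeR adjusted p = 0.0548) without 6 h replicate 2 and DNAJC18 0.70 (edgeR adjusted p = 0.0663) without 0 h replicate 1. HSPA1A differed at -0.58 on the log2 scale (edgeR adjusted p = 0.350) and DNAJA1 at -0.70 (edgeR adjusted p = 0.0933), neither past the threshold.

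From 12 to 24 h several early inducible genes were called lower and 4 of the 7 TRiC ring subunits higher, but most of these calls depended on the fit or on single libraries. At 24 h against 12 h, 14 members were higher and 10 lower, or 32.9% of members beside 28.4% of all genes (15.1% higher, 13.3% lower). Libraries did not overlap for 36 members, beside 49.1% of all genes. The members called lower included HSPA1A, at -1.20 ± 0.39 (SE, edgeR adjusted p = 0.0363), HSPA1B, at -1.17, BAG3, at -1.30 ± 0.35 (SE, edgeR adjusted p = 0.0164), DNAJA4, at -1.48 ± 0.42 (SE, edgeR adjusted p = 0.0203), and DNAJC14, at -1.47 ± 0.24 (SE, edgeR adjusted p = 0.00209). Those called higher included DNAJC19, at 1.16 ± 0.34 (SE, edgeR adjusted p = 0.0242), DNAJC30, at 0.93 ± 0.32 (SE, edgeR adjusted p = 0.0473), DNAJC12, at 0.85 ± 0.23 (SE, edgeR adjusted p = 0.0183), and 4 TRiC subunits, CCT2, CCT3, CCT4 and CCT5, at 0.43 to 0.66. With the replicate block HSPA1A was -1.10 (adjusted p = 0.0665), and HSPA1B, CCT2, CCT4 and CCT5 also lost their calls. A fit on only the 12 h and 24 h libraries called 0 genes of 17807 with edgeR, with 5671 genes and 19 members at an unadjusted p under 0.05. With library size alone as scale CCT2 was -0.02 (adjusted p = 0.946), CCT4 0.05 (adjusted p = 0.858) and CCT5 0.01 (adjusted p = 0.979). Most of the calls depended on single libraries. Only 5 of the 24 kept their call whichever library was left out, CCT3 among the higher and BAG5, DNAJC5, DNAJC14 and DNAJC16 among the lower. Without 12 h replicate 3 the count higher was 1, and without 24 h replicate 1 it was 21 higher and 21 lower. HSPA1A was -0.73 (edgeR adjusted p = 0.122) without 12 h replicate 1, and BAG3 was -1.06 (edgeR adjusted p = 0.0997) and DNAJA4 -1.16 (edgeR adjusted p = 0.128) without 24 h replicate 2. DNAJC19, a subunit of the mitochondrial import motor, stood at 7.27, 6.82 and 6.69 CPM at 12 h and 7.32 and 23.8 CPM at 24 h, and was 0.07 (edgeR adjusted p = 0.850) without 24 h replicate 2.

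Replicates of a group differed in the early inducible genes. At 6 h replicate 3, and at 12 h replicate 1, was the highest of its group for HSPA1A, HSPA1B, HSPA1L, HSPA6, DNAJB1, DNAJB4, BAG3 and DNAJA4. At 12 h replicate 1 was the highest for 32 of the 41 members that were higher at 6 h against 0 h. It was the highest for 4 of the 11 members that were lower, and the share over all tested genes was not counted. At 24 h the levels of replicate 2 over replicate 1 ran from -2.20 to 1.96 on the log2 scale over the 73 members, with a median of -0.12, and the members with the shortest annotated exonic length, HSPB1 and HSPE1, were 1.41 and 1.96 higher in replicate 2. Across the members this difference had a Pearson r of -0.307 and a Spearman rho of -0.275 with log2 exonic length (n = 73 genes of the same pair of libraries). Its part in the 24 h results was not tested.

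The order of the levels per length also changed. In normoxia HSPB1 led with 603 RPKM, before HSPA5 (379 RPKM), HSP90AB1 (257 RPKM) and HSPA8 (75.4 RPKM), and HSPA1A was the seventh at 63.6 RPKM, close to HSP90AA1 (65.2 RPKM), HSPD1 (63.9 RPKM) and CCT4 (62.7 RPKM). At 6 h HSPA1A led with 1440.2 RPKM and HSPA5 was the ninth at 179.5 RPKM. At 12 h HSPB1 led with 1215 RPKM, before HSPA1A (963 RPKM). At 24 h HSPB1 led with 1819 RPKM, before HSP90AB1 (907 RPKM), HSP90AA1 (869 RPKM), HSPA8 (655 RPKM) and HSPA1A (419.8 RPKM). The HSPB1 level at 24 h rests on replicate 2, at 2641 RPKM, since replicate 1 had 996 RPKM, close to the 971 RPKM of HSP90AB1 in the same library. HSP90AB1 and HSP90AA1 at 24 h overlapped in their libraries. In all, 12 members were not called in any comparison with 0 h, 16.4% of members beside 21.5% of all tested genes: HSPA9, HSPA13, CCT6B, BAG6, DNAJB11, DNAJB14, DNAJC3, DNAJC6, DNAJC10, DNAJC13, DNAJC19 and DNAJC24.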

How the data were processed

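RNA over 200 bases was sequenced as single-end reads with a 75-cycle kit from RWPE1 cells, and the 12 libraries of the study were built in 1 batch. The authors trimmed reads with Trimmomatic, aligned them with STAR to hg38 and counted them with featureCounts, per the labels' processing notes, which also name FastQC and DESeq2. The deposited table holds raw read counts per gene, and 0 of its columns were left unused. The strand setting is not given in the sources used here.

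From these counts, edgeR 4.0.16 in R 4.3.3 was run with TMM scaling, the filterByExpr defaults (minimum count 10, total 15), group means over all 11 libraries and the quasi-likelihood test. Benjamini-Hochberg adjustment ran over all 19981 tested genes, and a gene was called at an adjusted p under 0.05. The script was tested on simulated data. The 5 comparisons were each time against 0 h, 12 h against 6 h and 24 h against 12 h. CPM used TMM-scaled library sizes, and RPKM used the exonic length of the annotation. Gene types, positions and shared 75-base windows came from GENCODE on GRCh38, where 60357 of 60676 identifiers were found. Alternatives were limma-voom (limma 3.58.1), DESeq2 1.42.0, median-of-ratios and plain library sizes, no filter, a replicate block, fits on the 2 groups compared and leaving out each library.

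The members, the pathway lists and the tests were chosen with earlier results of these data known. Genes were named by rule: a list of 14 well-known members, the 4 highest and 4 lowest called members without overlap at each time against 0 h, the 3 highest and 3 lowest between later times, the highest and lowest called gene of each pathway list, members sharing windows with other genes, those next to the count limit, and the highest RPKM of each family. Other members and genes were named after their values were seen. Counts of single libraries carry counting error beyond the spread shown.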

Additional observations from a re-analysis of the deposited data

Results flagged for a closer look

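Between 6 and 12 h of hypoxia, the log2 difference was 0.85 for DNAJC16 and 0.71 for DNAJC18, each a test of the difference itself by edgeR's quasi-likelihood test. Only genes named by rule were considered, so other called members, such as CCT3 and BAG5, are absent. Between 12 and 24 h, 18 of the genes named by rule were singled out because their effects against 0 h differed by the same test. Those higher at 24 h were ATF3 (1.63 on the log2 scale), DNAJC19 (1.16), HSBP1 (1.10), DNAJC30 (0.93), DNAJC12 (0.85), BAG2 (0.78), TCP1 (0.62) and CCT4 (0.52). Those lower at 24 h were HSPA12A (-0.65), ERN1 (-0.70), DNAJC5 (-0.76), DNAJC16 (-0.77), HSPA1B (-1.17), HSPA1A (-1.20), SLC5A3 (-1.27), BAG3 (-1.30), DNAJC14 (-1.47) and DNAJA4 (-1.48). ATF3 at 24 h joined libraries of 16.7 and 5.99 CPM, against 4.70, 3.11 and 3.29 CPM at 12 h. With 2 libraries at 24 h, most of these calls depended on which library was left out.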

How the results depend on the processing

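The counts of members called at 6, 12 and 24 h against 0 h stayed within 1.5 times under limma-voom, DESeq2, median-of-ratios size factors, no filter and a replicate block. Library size alone gave 25 higher and 28 lower at 24 h, and a fit on only the 2 groups compared gave 18 lower at 6 h. For 12 h against 6 h, higher counts were 4 in DESeq2, 0 with library size alone and 1 with the block, and lower counts were 3 in DESeq2, 1 with library size alone, 5 without a filter and 3 in the fit on 2 groups. For 24 h against 12 h, higher counts were 0 with library size alone, 7 without a filter, 6 with the block and 0 in the fit on 2 groups, and lower counts were 16 without a filter, 6 with the block and 0 in the fit on 2 groups. Leaving out single libraries gave 39 to 42 higher and 9 to 18 lower at 6 h, 38 to 46 and 7 to 12 at 12 h, 38 to 42 and 11 to 17 at 24 h, 0 to 6 and 0 to 4 at 12 h against 6 h, and 1 to 21 and 5 to 21 at 24 h against 12 h. With library size alone these log2 fold changes turned: DNAJC1 at 12 h (-0.073), and at 24 h HSP90B1 (-0.014), DNAJC18 (-0.30), DNAJC19 (-0.67), DNAJB2 (-0.65), BAG4 (-0.44), DNAJB11 (-0.82), DNAJB14 (-0.91), DNAJB4 (-0.035), DNAJC17 (-0.79), DNAJC4 (-0.21) and HSF1 (-0.080), and at 24 h against 12 h BAG1 (-0.0096) and CCT2 (-0.021). Leaving out single libraries moved DNAJC19 at 24 h from -0.68 to 0.98 and DNAJC7 at 24 h against 12 h from -0.46 to 0.52. Replicate numbers are shared between groups, but same-numbered libraries did not deviate together (15 pairs, r from -0.156 to 0.207), so the replicate block rests on a number alone. Apart from library size, whose construction sets the shift, the cause was not tested. Low counts limit CCT6B, DNAJC28, HSPA6 and HSPB8.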
